A study of Mus musculus with 232 samples.

Results

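The 9 genes described here carry threonine, glycine and serine carbon into the folate pool of mouse embryonic stem cells (ESCs). They were listed by symbol (Tdh, Gcat, Gldc, Shmt1, Shmt2, Mthfd1, Mthfd2, Phgdh and Psat1) out of 42493 gene identifiers in the files, and all 9 were among the 11186 genes whose count averaged 5 or more over all cells. Single ESCs had been captured on Fluidigm C1 circuits 24 h after transfection and sequenced cell by cell, after growth in DMEM with 15% FBS, LIF and 2i, the MEK and GSK3 inhibitors PD0325901 and CHIR99021. The 4 conditions were wild-type (WT) V6.5 ESCs with 16 cells, mock-transfected Dgcr8-/- ESCs with 60 cells, Dgcr8-/- ESCs transfected with a miR-294 mimic with 58 cells, and Dgcr8-/- ESCs transfected with a let-7 mimic with 48 cells. Every mimic-treated cell therefore also lacked Dgcr8, whose protein is needed to process most miRNAs, and WT was the only condition with Dgcr8-dependent miRNAs of its own. The let-7 mimic is let-7i in the titles, let-7b in the series text and let-7c in the study's methods, and the name let-7 is used here. In the text, Dgcr8-/- cells without further words are the mock-transfected ones.

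Tdh, threonine dehydrogenase, oxidizes threonine in mitochondria, and Gcat cleaves the product into glycine and acetyl-CoA. Gldc is the decarboxylase of the glycine cleavage system, which passes a carbon of glycine to tetrahydrofolate, while Shmt1 in the cytosol and Shmt2 in mitochondria do the same with serine. Mthfd1 in the cytosol and Mthfd2 in mitochondria interconvert the folate-bound carbon units used for purines, thymidylate and methionine, and Phgdh and Psat1 catalyse the early steps of serine synthesis from a glycolytic intermediate. Mouse ESCs are known for high Tdh expression and for their need for threonine.

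The sequences of the mimics are shown because the transfected strand was the only designed difference between the 3 Dgcr8-/- conditions. The capitals mark the seed, bases 2 to 8, and the mature sequences are those of RefSeq for GRCm38.p6.
mmu-miR-294-3p: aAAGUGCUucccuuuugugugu
mmu-let-7c-5p: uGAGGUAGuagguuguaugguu
mmu-let-7b-5p: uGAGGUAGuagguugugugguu
mmu-let-7i-5p: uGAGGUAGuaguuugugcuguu
The let-7 seed was the same in the 3 family members that the sources name, so the choice of name did not alter the search for seed matches. A match to bases 2 to 8 (AGCACTT for miR-294, CTACCTC for let-7) was in the annotated 3′ UTR of 0 of the 9 members. Of the 10304 filtered genes with an annotated 3′ UTR, 19.5% and 11.3% held one. With only 9 genes, 0 is not read as a difference from these shares. The longest 3′ UTR of a member ran from 133 bases in Phgdh to 1368 in Psat1, and the shares were not adjusted for length. With the 6 bases that pair with bases 2 to 7 (GCACTT and TACCTC), 1 member matched each mimic, beside 35.8% and 27.8% of those genes. The match to miR-294 was in Shmt1 and the match to let-7 was in Gcat, and each is printed in capitals with the bases around it.
Shmt1, chr11:60788704-60788709, minus strand: tgacgtctctGCACTTggcttaggac
Gcat, chr15:79037493-79037498, plus strand: tgggtaggcgTACCTCtggctacctg
Here and below, positions are those in GRCm38 (Gencode M21), a later annotation than the one the counts were made with. No member was on either of the lists of miR-294 and let-7c targets that the study took from earlier bulk arrays. A letter match describes these UTRs and says nothing about binding.

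Several features of the libraries precede the results. As far as the sources say, each condition was 1 culture on 1 C1 circuit, so condition and circuit cannot be told apart, and the cells of a condition are not replicates of it. Each condition was therefore taken as 1 sample. Differences are given as ratios without a test, a 2-fold difference is a size only, and the SD or range is over cells. Cells held between 513521 and 3979274 counts, with a median of 1521871, and the number of genes counted ranged from 6119 to 10877. The authors had removed 1 miR-294-transfected and 5 let-7-transfected cells whose targets were not lower, so the transfected cells had been selected on an outcome. In 4 pairs of cells, 3 in let-7 and 1 in miR-294, the counts were nearly the same (Pearson's r of log2 values from 0.986 to 0.989, where no other pair of cells exceeded 0.715), which is closer to the 2 runs of a cell (0.97 or more in 48 cells) than to different cells. In 1 let-7-transfected and 1 WT cell the 2 runs differed as much as runs of different cells. These cells were kept. Without 1 cell of each near-identical pair the numbers of members at least 2-fold apart were the same in every comparison, and without both cells with unlike runs the 1 difference was in let-7, where Shmt1 joined the members at least 2-fold lower (log2 ratio -1.05 in place of -0.98). The 10 stem cell markers examined, Pou5f1, Nanog and Zfp42 among them, were counted in all conditions, and their summed normalized count ranged over cells from 5781 to 11270 in WT, 3406 to 15320 in Dgcr8-/-, 5159 to 16520 in miR-294 and 1522 to 12510 in let-7. Of 10 fibroblast markers, Col1a2, Col3a1, Col6a1, Postn and Lum were at 0 in every cell, and the summed level had a median of 0 in each condition and reached 349.7 in 1 let-7 cell. Dgcr8 itself had a mean normalized count of 118.4 in WT and 51.47 in mock-transfected Dgcr8-/- cells, with counts in 54 of the 60 latter cells, and a gene-level count cannot show the deleted stretch.

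Counts of a cell were summed over its runs and divided by a size factor, and such normalized counts, comparable between cells for 1 gene, are used below. For levels between genes the deposited FPKM was used, which is per gene length. Over Dgcr8-/- cells the median FPKM was highest for Tdh at 389.7, followed by Psat1 at 74.22, Mthfd1 at 52.36, Gcat at 31.7, Shmt1 at 29.55, Shmt2 at 29.2, Mthfd2 at 16.91, Phgdh at 1.857 and Gldc at 0. Tdh was also the member with the highest median FPKM in WT, at 284.7, in miR-294, at 528.4, and in let-7, at 77.17. In let-7-transfected cells the next medians were 50.12 for Mthfd2 and 43.91 for Mthfd1, so that mitochondrial Mthfd2 stood second there and seventh in Dgcr8-/-.

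**Figure D1:**
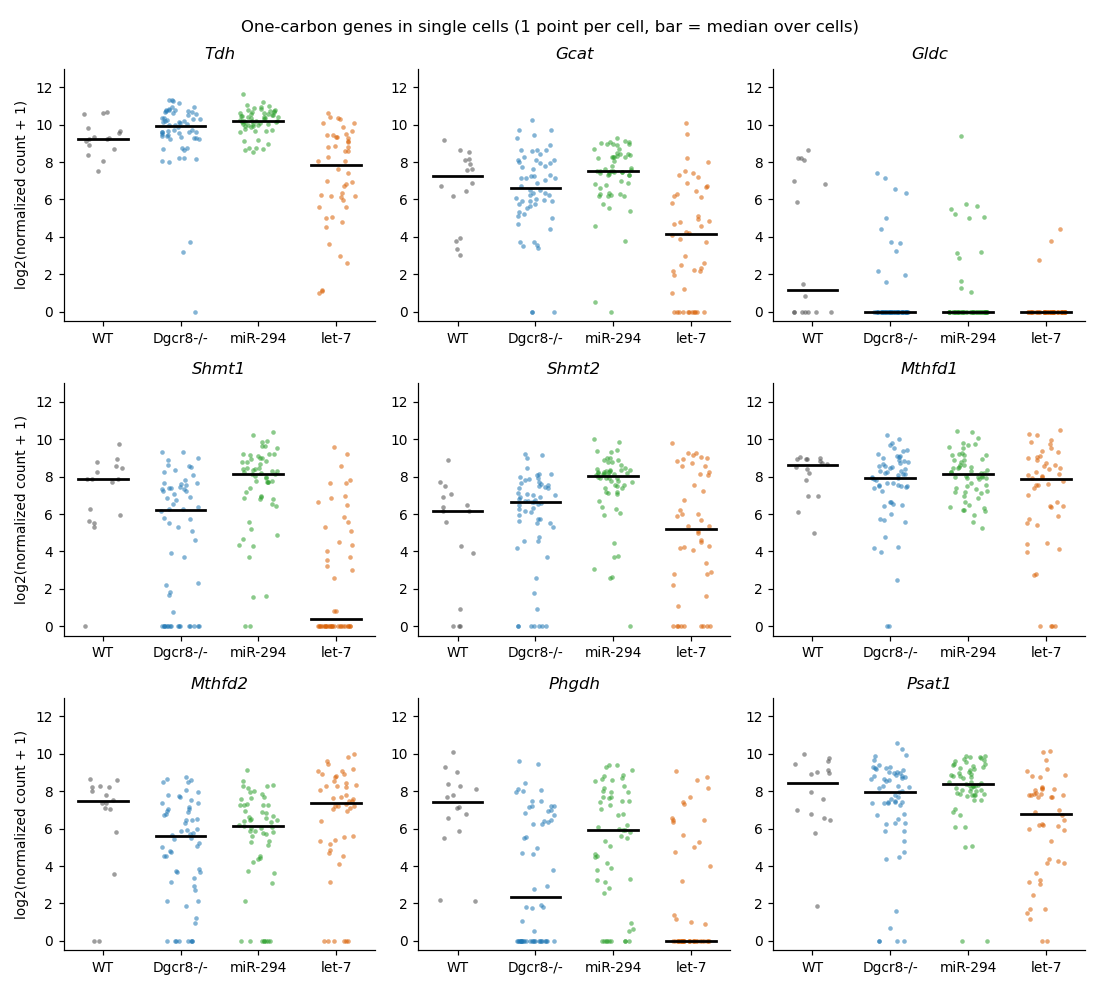
Each panel plots log2(normalized count + 1) of 1 gene on the y axis, with 1 point per cell in WT (16), Dgcr8-/- (60), miR-294 (58) and let-7 (48) on the x axis, and the bar is the median over cells. Tdh spread from 0.9698 to 1569 normalized counts in let-7 and from 369.2 to 3162 in miR-294, and the let-7 medians of Shmt1 and Phgdh were at or near 0.

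The members were first set beside all genes, by the ratio of condition means. In miR-294 relative to Dgcr8-/-, 2 of the 9 members (Shmt1 and Shmt2) were at least 2-fold higher and 0 were at least 2-fold lower, where 5.78% and 20.4% of 11173 genes were. All 9 members had a log2 ratio above 0, as did 34.6% of all genes, and Gldc was below 0 without its highest cell. The median was 0.29 over the members and -0.28 over all genes. In let-7 relative to Dgcr8-/-, 1 member (Mthfd2) was at least 2-fold higher and 3 (Tdh, Gcat and Gldc) at least 2-fold lower, where 18.9% and 9.24% of 11185 genes were. The median was -0.69 over the members and 0.18 over all genes. From WT to Dgcr8-/-, 0 members were at least 2-fold higher and 3 (Gldc, Mthfd2 and Phgdh) at least 2-fold lower, where 31.9% and 9.34% of 11140 genes were. The medians were -0.25 and 0.37. The 3 comparisons share the Dgcr8-/- cells, so a low or high value there enters all of them. The median of all genes depended on the scaling between cells. It was -0.08, 0.11 and 0.16 in the order above when cells were scaled by their total count, and -0.13, 0.10 and 0.21 with TMM factors. Relative to the median gene, 4 members were at least 2-fold higher in miR-294, Phgdh and Gldc being added, and Phgdh was past 2-fold in 8 of 13 alternative settings. Genes higher made up 22.1% of the genes called in miR-294, and 38.3% after centring on the median gene. The share was 67.1% and 55.6% in let-7, and 77.4% and 60.4% from WT to Dgcr8-/-.

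**Figure D2:**
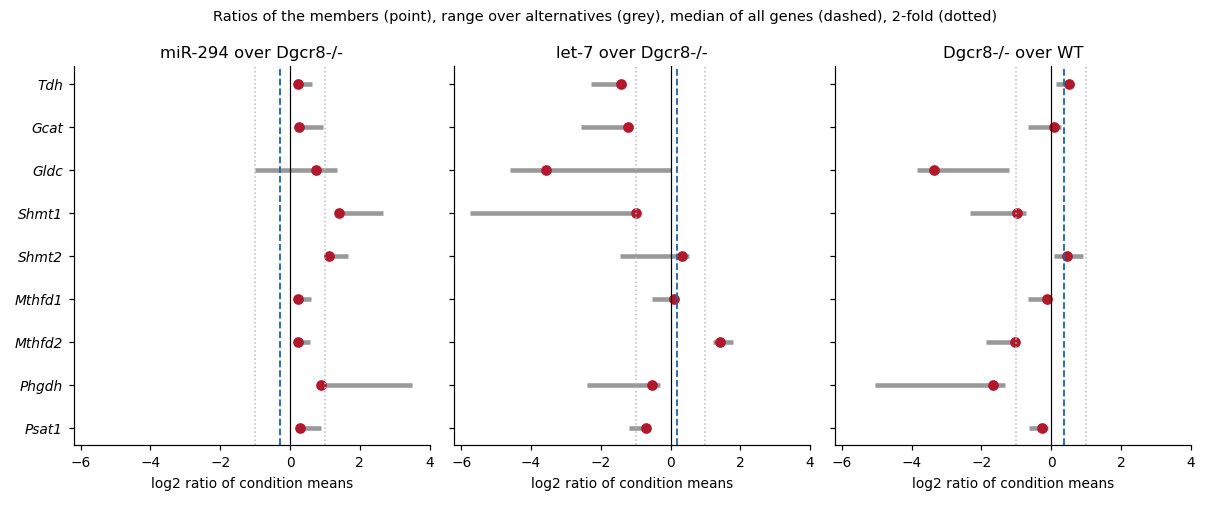
Points are log2 ratios of condition means (x axis) for the 9 members (y axis) in 3 comparisons, grey bars span the 13 alternative settings, the dashed line is the median of all genes and dotted lines mark 2-fold. In miR-294 all points lie right of the dashed line at -0.28, while in let-7 Mthfd2 at 1.41 is the member past 2-fold on the higher side.

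Tdh, Gcat and Gldc had lower means in let-7-transfected than in Dgcr8-/- cells. The normalized count of Tdh (chr14:63492347-63509092, minus strand) ranged in Dgcr8-/- cells from 0 to 2547 with a median of 966.5. In let-7-transfected cells it ranged from 0.9698 to 1569 with a median of 230.2. The ranges overlapped, but 6 of 48 let-7-transfected cells were above the Dgcr8-/- median. The mean was 395.7 against 1059, a 2.68-fold lower level (log2 ratio -1.42). No miR-294 or WT cell was under 100 normalized counts, as 18 of 48 let-7 and 3 of 60 Dgcr8-/- cells were. In miR-294 Tdh ranged from 369.2 to 3162 with a median of 1179, and in WT from 180.8 to 1637 with a median of 609.8. Below the lowest miR-294 cell lay 27 of 48 let-7 cells (56.2%), 8 of 60 Dgcr8-/- cells (13.3%) and 3 of 16 WT cells (18.8%), a limit chosen after the values were seen. The mean of miR-294 was 1.18-fold higher than that of Dgcr8-/- (1253 against 1059), and 44 of 58 cells were above the Dgcr8-/- median. Dgcr8-/- cells were 1.43-fold higher than WT. The cell-to-cell spread was smallest in miR-294, with a coefficient of variation (SD over mean) of 0.419, and largest in let-7, with 1.08. That of WT was 0.61 and that of Dgcr8-/- 0.604. The median coefficient over all genes was between 1.68 and 1.82 in the 4 conditions.

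Gcat (chr15:79030874-79038353, plus strand), which acts on the product of Tdh, had the same order of means, with 231.3 in miR-294, 193.6 in Dgcr8-/-, 184.4 in WT and 82.96 in let-7. Its median over cells was 184, 96.06, 152.9 and 16.84 in the same order, so WT and Dgcr8-/- changed places between the mean and the median. The highest values were 628, 1209, 583.7 and 1071, and the lowest was 0 except in WT, at 7.05. The highest let-7 cell was thus close to the highest Dgcr8-/- cell, while the middle of the distribution was far lower. Gcat was counted in 37 of 48 let-7-transfected cells (77.1%, exact binomial 95% interval 62.7 to 88), against 57 of 60 Dgcr8-/- cells (95%, 86.1 to 99) and 57 of 58 miR-294 cells (98.3%, 90.8 to 100). When every cell was thinned to 500000 counts the let-7 share was 64.6% and that of Dgcr8-/- 95%, so the gap was no narrower at equal depth. Intervals of shares cover only the sampling of cells from 1 culture. Those of summed counts treat reads as independent, which reads without molecular identifiers are not, so they are narrower than the real error. The let-7 mean was 2.33-fold below that of Dgcr8-/- (log2 ratio -1.22), and 26.9% of the let-7 sum came from a single cell, without which the log2 ratio was -1.64.

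Gldc (chr19:30098447-30175429, minus strand) was counted in few cells of the conditions without Dgcr8. It was counted in 9 of 16 WT cells (56.2%, 29.9 to 80.2), 12 of 60 Dgcr8-/- cells (20%, 10.8 to 32.3), 13 of 58 miR-294 cells (22.4%, 12.5 to 35.3) and 3 of 48 let-7 cells (6.25%, 1.31 to 17.2). The summed counts were 1459 in WT (exact Poisson 95% interval 1385 to 1536), 526 in Dgcr8-/- (482 to 573), 1286 in miR-294 (1217 to 1358) and 39 in let-7 (28 to 53). The WT values were themselves split, from 0 to 404.3 with a median of 1.3. The mean was 98.18 in WT, 10.3-fold that of Dgcr8-/- at 9.575, and the let-7 mean of 0.8082 was 11.8-fold below it (log2 ratio -3.57). Without the highest let-7 cell that log2 ratio was -4.60, with the mean of log2 values it was -0.66, short of 2-fold, and the median over cells was 0 in both conditions. In miR-294 the mean of 16.07 rested on 1 cell with 660.5 normalized counts, 70.9% of the sum. Without that cell the mean was 4.761 and the log2 ratio to Dgcr8-/- went from 0.75 to -1.01. The direction of Gldc in miR-294 thus rested on that cell.

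By condition means, the serine hydroxymethyltransferases had the largest ratios in miR-294. With the median over cells Phgdh had the largest, a log2 ratio of 3.50 beside 1.92 for Shmt1 and 1.36 for Shmt2. Cytosolic Shmt1 (chr11:60788104-60811718, minus strand) ranged in Dgcr8-/- cells from 0 to 634.7 with a median of 73.11, and in miR-294 from 0 to 1343 with a median of 279.9. The ranges overlapped, and 47 of 58 miR-294 cells were above the Dgcr8-/- median. The mean was 335.1 against 126.2, a 2.65-fold higher level (log2 ratio 1.41). WT, from 0 to 857 with a median of 231.6, lay nearer to miR-294, and let-7, from 0 to 777.7 with a median of 0.366, lay below all others. The share of cells with a count followed the same order as the means. Shmt1 was counted in 44 of 60 Dgcr8-/- cells (73.3%, 60.3 to 83.9), 56 of 58 miR-294 cells (96.6%, 88.1 to 99.6), 15 of 16 WT cells (93.8%, 69.8 to 99.8) and 24 of 48 let-7 cells (50%, 35.2 to 64.8). Among cells with a count the median was still 284.8 in miR-294 and 140 in Dgcr8-/-. The WT mean of 250.2 was 1.98-fold that of Dgcr8-/-, and the let-7 mean of 64.06 was 1.97-fold below it. In each of these 2 comparisons Shmt1 was past 2-fold in 9 of 13 alternative settings.

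Mitochondrial Shmt2 (chr10:127517123-127522444, minus strand) ranged in miR-294 from 0 to 1044 with a median of 258.2, and in Dgcr8-/- from 0 to 587 with a median of 99.99. Its mean was 278.2 against 128.3, or 2.17-fold higher (log2 ratio 1.12), and 47 of 58 cells were above the Dgcr8-/- median. WT did not share this level, with a range from 0 to 466.9, a median of 69.72 and the lowest mean, 93.68. In let-7 the values ranged from 0 to 905.5. There the mean and the median went apart, with a mean of 161.6 above that of Dgcr8-/- and a median of 36.26 below it, and 17 of 48 cells were above the Dgcr8-/- median. No direction is given for Shmt2 in let-7 for that reason.

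The folate-interconverting enzymes differed from each other. Mthfd1 (chr12:76255298-76319803, plus strand) had nearly the same mean in all conditions, 336.1 in WT, 309.8 in Dgcr8-/-, 364.7 in miR-294 and 331.6 in let-7, with ratios to Dgcr8-/- of at most 1.18-fold. The ranges were 30.58 to 525.7 in WT, 0 to 1188 in Dgcr8-/-, 37.7 to 1402 in miR-294 and 0 to 1417 in let-7, with medians of 390.9, 245.4, 278.8 and 230.7. WT alone had a narrow spread, with a coefficient of variation of 0.506, against 1.08 in let-7. Mthfd2 (chr6:83305691-83325908, minus strand) was the 1 member at least 2-fold higher in let-7. It ranged in let-7 from 0 to 1000 with a median of 166.8, and in Dgcr8-/- from 0 to 429.5 with a median of 47.22. The means were 244.2 and 91.86, a 2.66-fold difference (log2 ratio 1.41), and 33 of 48 let-7 cells were above the Dgcr8-/- median. The share of cells with a count was alike, 42 of 48 (87.5%, 74.8 to 95.3) and 52 of 60 (86.7%, 75.4 to 94.1), so the higher mean lay in the level per cell. In WT, from 0 to 402.7 with a median of 176.6, the mean of 189.6 was 2.06-fold that of Dgcr8-/-, with a log2 ratio of Dgcr8-/- to WT of -1.05 that was -0.93, short of 2-fold, without the WT cell with the highest value. In miR-294, from 0 to 560.2 with a median of 70.35, the mean of 107.1 was 1.17-fold that of Dgcr8-/-.

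Phgdh (chr3:98313170-98339990, minus strand), the first enzyme of serine synthesis, had the largest ratio between WT and Dgcr8-/- after Gldc. In WT it ranged from 3.432 to 1090 with a median of 172.9 and was counted in all 16 cells (79.4 to 100%). In Dgcr8-/- it ranged from 0 to 798.6 with a median of 4.304 and was counted in 36 of 60 cells (60%, 46.5 to 72.4). The WT mean of 261 was 3.18-fold the Dgcr8-/- mean of 81.97 (log2 ratio of Dgcr8-/- to WT -1.67), and 14 of 16 WT cells were above the Dgcr8-/- median. In miR-294 the range was 0 to 676.6 and the median 58.79, with counts in 49 of 58 cells (84.5%, 72.6 to 92.7). The miR-294 mean of 151 lay between those of Dgcr8-/- and WT, 1.84-fold above the former. In let-7 the range was 0 to 547.5 and the median 0, with counts in 21 of 48 cells (43.8%, 29.5 to 58.8) and a mean of 56.97. Among cells with a count the medians were closer, 85.85 in Dgcr8-/-, 106.7 in miR-294, 81.27 in let-7 and 172.9 in WT. Psat1 (chr19:15904678-15947337, minus strand), which follows Phgdh in the pathway, was counted in 93.3% of Dgcr8-/- cells and in at least that share elsewhere. It ranged from 2.582 to 1017 in WT, 0 to 1529 in Dgcr8-/-, 0 to 933.9 in miR-294 and 0 to 1117 in let-7. The medians were 370.4, 250.6, 331 and 109.9 in the same order. Its means, 398, 333.8, 407.3 and 206.6, differed from that of Dgcr8-/- by at most 1.62-fold, in let-7.

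**Figure D3:**
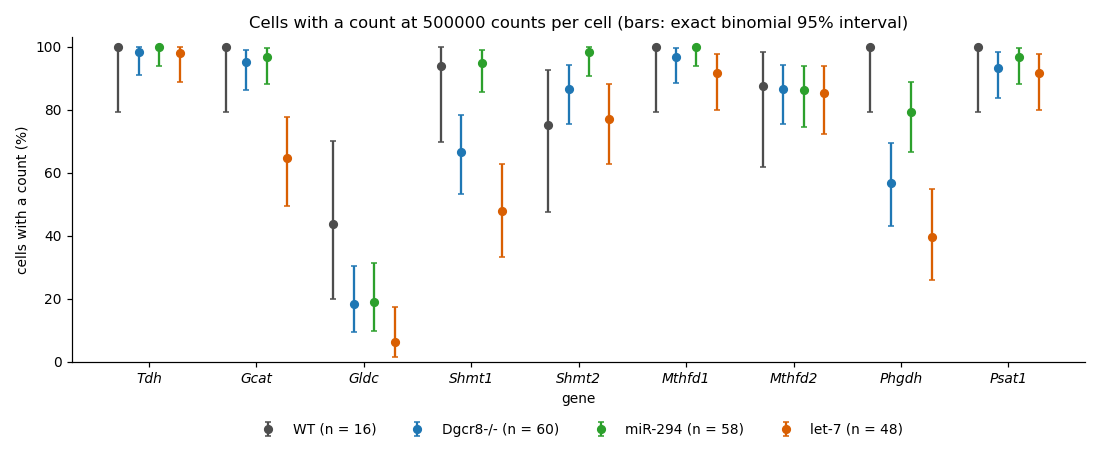
The y axis gives the percent of cells with a count of each gene on the x axis after every cell was thinned to 500000 counts. Bars are exact binomial 95% intervals for the sampling of cells only. Tdh, Mthfd1, Mthfd2 and Psat1 were counted in at least 85.4% of cells of every condition, whereas the let-7 shares were 64.6% for Gcat, 47.9% for Shmt1, 39.6% for Phgdh and 6.25% for Gldc.

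The order of the conditions differed by gene. By mean, miR-294 was highest for Tdh, Gcat, Shmt1, Shmt2, Mthfd1 and Psat1, WT for Gldc and Phgdh, and let-7 for Mthfd2. The lowest mean was in let-7 for Tdh, Gcat, Gldc, Shmt1, Phgdh and Psat1, in Dgcr8-/- for Mthfd1 and Mthfd2, and in WT for Shmt2. Conditions next to each other in these orders had overlapping quartile ranges over cells for every member, so neighbouring places are within the spread between cells. Summed over the 9 members, the normalized count per cell had a mean of 2552 ± 841.8 in WT, 2334 ± 1172 in Dgcr8-/-, 3143 ± 1011 in miR-294 and 1544 ± 707.4 in let-7 (SD over cells). In thinned cells the median number of members with a count was 8, 7, 8 and 6, and all 9 were counted in 4 WT, 4 Dgcr8-/-, 8 miR-294 and 0 let-7 cells.

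Cells rich in 1 member were not in general rich in the others. Over the 36 pairs of members, the median Spearman correlation over cells was 0.10 in WT, 0.12 in Dgcr8-/-, 0.10 in miR-294 and 0.05 in let-7, and these are descriptions over cells of 1 culture that share depth and circuit. The consecutive enzymes Tdh and Gcat were the pair with the highest value in Dgcr8-/- (0.35, 60 cells), but their value was 0.12 in miR-294 and 0.10 in let-7. Phgdh and Psat1 had 0.24 in WT, 0.20 in Dgcr8-/-, 0.29 in miR-294 and 0.14 in let-7. The mitochondrial pair Shmt2 and Mthfd2 had -0.55 in the 16 WT cells and between 0.10 and 0.21 elsewhere. The highest pair was Mthfd2 with Psat1 in miR-294 (0.47), Mthfd2 with Phgdh in let-7 (0.41) and, over 16 cells, Tdh with Mthfd2 in WT (0.45). The 5 genes most like Tdh across Dgcr8-/- cells, among 7348 genes counted in at least 50% of all cells, were Etfb, Ecd, Qtrt1, Rps6 and Ddx39b, with Spearman correlations from 0.53 to 0.58. Their values ran from -0.05 to 0.25 in WT, from -0.05 to 0.36 in miR-294 and from -0.12 to 0.10 in let-7. The 5 most like Phgdh were Tnks, Chek1, Kin, Iah1 and Vill, from 0.46 to 0.50 in Dgcr8-/-, from -0.56 to 0.24 in WT, from -0.01 to 0.12 in miR-294 and from -0.19 to 0.15 in let-7. Both lists were chosen for their values in Dgcr8-/-, so lower values elsewhere follow from the choice.

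**Figure D4:**
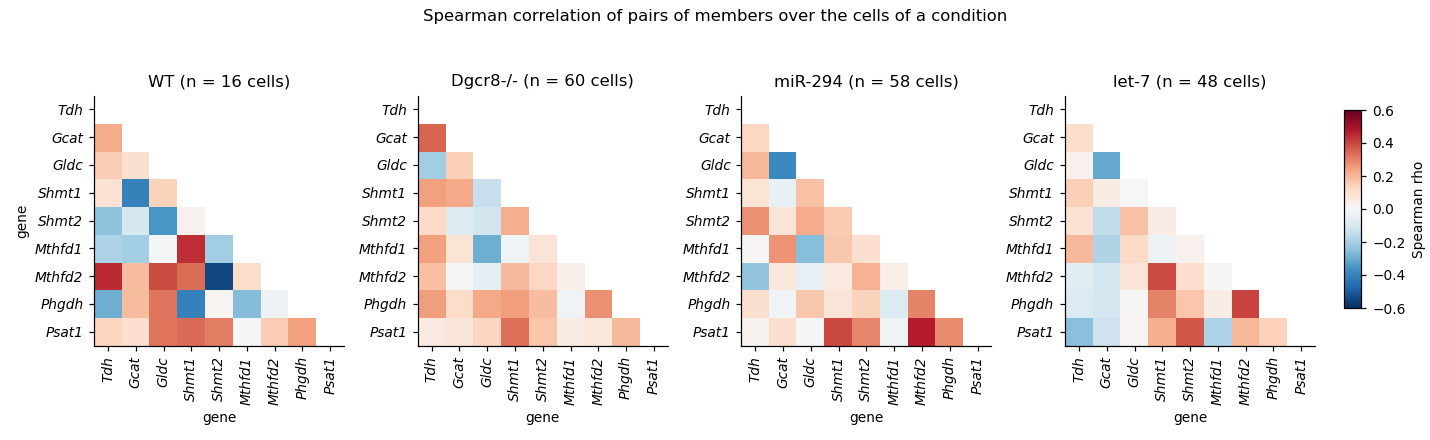
Each square is the Spearman correlation of a pair of members (genes on both axes) over the cells of 1 condition, from blue (below 0) to red (above 0). The values change between conditions, with a lowest value of -0.55 for Shmt2 with Mthfd2 in WT and a highest of 0.47 for Mthfd2 with Psat1 in miR-294.

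Other genes of the pathway were read from 7 lists with 83 genes besides the members, of which 71 passed the filter. In miR-294, 4 were at least 2-fold higher and 8 lower, beside 5.78% and 20.4% of all genes, with a median log2 ratio of -0.11. The largest differences upward were Vldlr, a lipoprotein receptor of the amino acid response list (8.77-fold, from 2 cells), the glutamine and serine transporter Slc1a5 (3.24-fold) and the mitochondrial folate carrier Slc25a32 (2.26-fold). The largest downward were the stress factor Atf3 (10.1-fold), the mitochondrial formyltetrahydrofolate dehydrogenase Aldh1l2 (5.17-fold) and Sfxn3 (3.45-fold), a relative of the serine carrier Sfxn1. Atf3 was counted in 5 of 58 miR-294 and 10 of 60 Dgcr8-/- cells. The log2 ratio of Sfxn3 was -1.79 by means and -1.21 by pooled counts. Slc1a5 was counted in 33 of 60 Dgcr8-/- and 47 of 58 miR-294 cells. The partners of Gldc in the glycine cleavage system were in most cells of both conditions, Amt at means of 466.6 and 411.5 and Gcsh at 465.1 and 556.8. The threonine and glycine cleavage list of 5 held these 2 and Dld, Tars and Tars2, not all of them partners of Gldc. Of the 5, 0 were 2-fold apart in miR-294 or let-7.

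In let-7, 13 of the 71 were at least 2-fold higher and 11 lower, beside 18.9% and 9.24% of all genes, so the share higher was near that of all genes. The median was -0.19. The amino acid response list, genes known to be switched on by Atf4 under amino acid or unfolded protein stress along with their regulators, held 8 of the 13. These were 8 of its 16 filtered genes, beside 18.9% of all genes. In all, 10 of the 16 had a log2 ratio above 0, beside 59.7% of all genes, and the list median was 0.83. Vldlr had a mean of 44.43 against 0.3365 in Dgcr8-/-, from 1731 against 12 counts and in 16 of 48 against 1 of 60 cells. Atf3 was 15.5-fold higher (32 of 48 against 10 of 60 cells) and Chac1, a glutathione-degrading enzyme, 11.3-fold (13 of 48 against 3 of 60 cells). The other 5, named after their values were seen, were Trib3, Slc7a11, Nupr1, Atf4 and Ddit3, with log2 ratios of 2.34, 2.25, 1.51, 1.198 and 1.12. Asns, the asparagine synthetase of the same list, had -0.22, and the serine synthesis members Phgdh and Psat1, which are also known to respond to Atf4, had -0.53 and -0.69. Mthfd2, a member with the same known regulator, had 1.41. The lowest ratios in let-7 were those of Bhmt, Cbs and Slc46a1, a betaine-homocysteine methyltransferase, the cystathionine synthase and a folate transporter. Bhmt had 3 counts in let-7 against 471 (log2 ratio of pooled counts -6.79, counting interval -9.07 to -5.23), and the 471 came from 9 of 60 Dgcr8-/- cells. Cbs was 8.12-fold and Slc46a1 5.32-fold lower, in 2 and 3 let-7 cells with a count. Of 12 genes of purine synthesis, which draws on formyl-tetrahydrofolate, 2 had a log2 ratio above 0 in let-7, beside 59.7% of all genes. In this list 2 were at least 2-fold lower, beside 9.24% of all genes, and the median was -0.41.

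DNA synthesis in S phase uses thymidylate and purines, and S phase genes were set beside these values. All 16 genes of an S phase list had log2 ratios below 0 in let-7, where 59.7% of all genes were above 0. Of the 16, 4 were at least 2-fold lower, beside 9.24% of all genes, and the median was -0.73. The mean log2 level of the 16 per cell was 5.36 in let-7, 6.83 in Dgcr8-/-, 7.26 in miR-294 and 7.14 in WT. Over let-7 cells this S phase level had a Spearman correlation of 0.50 with Tdh, 0.41 with Shmt1, 0.20 with Mthfd2 and 0.04 with Mthfd1. It was between 0.10 and 0.16 for Gcat, Shmt2, Phgdh and Psat1, and -0.24 for Gldc. The number of genes counted in a let-7 cell had 0.37 with Tdh, 0.43 with Shmt1, 0.18 with Mthfd2 and 0.15 with Mthfd1. For Tdh the correlation with the S phase level was 0.49 in WT, 0.36 in Dgcr8-/- and 0.02 in miR-294. The parts of S phase and of the number of genes counted in the let-7 levels were not tested. The stem cell factors Nanog and Sall4 had means of 215.4 and 201.2 in let-7 against 648.7 and 1104 in Dgcr8-/-. All 10 stem cell markers had a lower mean in let-7, and these falls were the largest. Tbx3 had 116.5 against 124.9, Klf4 92.31 against 104.9 and Dppa5a 2530 against 3251. The study reported no significant change of its pluripotency markers, Nanog and Sall4 included, between the conditions. Sparc, on the primitive endoderm list, had 2610 against 1237, while Gata6, Sox17 and Afp of that list were at 0 in every cell. The summed level of the list had a median of 2313 in let-7 and 1022 in Dgcr8-/-, but this sum was nearly all Sparc. The means of its other genes were at most 19.83 in let-7 and 2.761 in Dgcr8-/-, so the sum does not describe the list as a whole. The part of the stem cell and endoderm genes was not tested either.

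From WT to Dgcr8-/-, 17 of the 71 were at least 2-fold higher and 8 lower, beside 31.9% and 9.34% of all genes, with a median of 0.09. The largest differences downward were in Chac1 (9.18-fold, from 3 WT cells), the amino acid transporter Slc7a5 (4.34-fold) and Prps1 (3.08-fold), which makes the ribose donor of purine synthesis. Slc7a5 was counted in 13 of 16 WT and 32 of 60 Dgcr8-/- cells. Upward, Atf3 had 1 count in WT against 617 (log2 ratio of pooled counts 7.35, counting interval 4.86 to 12.65). It was counted in 1 of 16 WT and 10 of 60 Dgcr8-/- cells, and the interval does not cover this spread over cells. Bhmt had 0 counts in 16 WT cells against 471, which came from 9 of 60 Dgcr8-/- cells. Its ratio of 71.4-fold was set by the floor of 3 counts over the WT cells and is not a lower bound. The formyltetrahydrofolate dehydrogenase Aldh1l1 was 21.6-fold higher, counted in 5 of 60 Dgcr8-/- and 1 of 16 WT cells, shares that were alike. The other serine synthesis gene that passed the filter, the phosphatase Psph, was on the same side as Phgdh, with 139.1 in WT and 48.73 in Dgcr8-/- (log2 ratio -1.51). Amt, a partner of Gldc, was on the other side from Gldc, with 137.9 in WT and 466.6 in Dgcr8-/- (log2 ratio 1.76). Psph, Asns, Amt, Gcsh and the stem cell and endoderm genes were named after their values were seen.

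**Figure D5:**
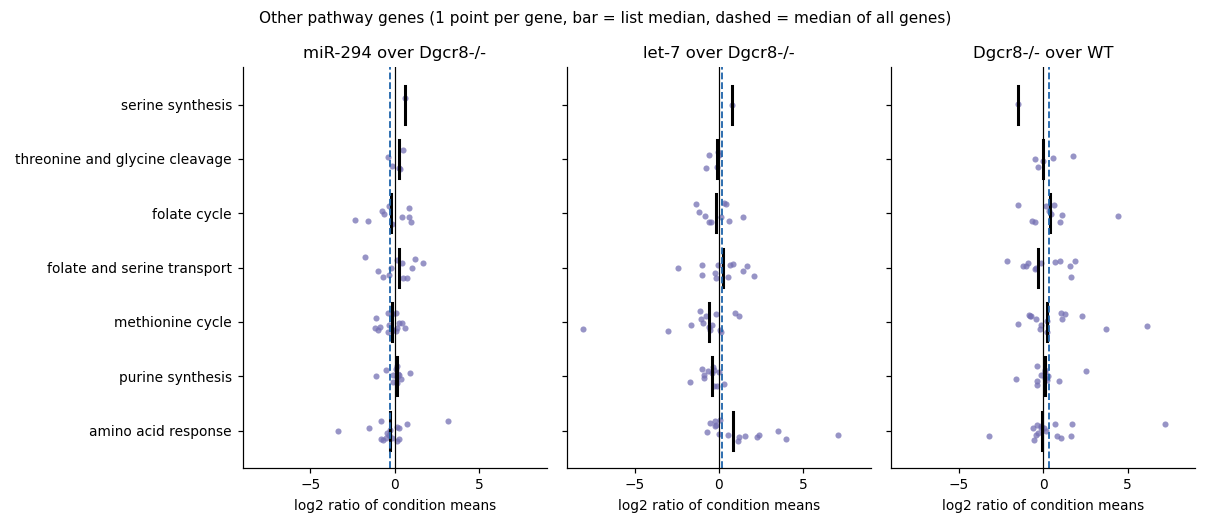
Points are the log2 ratios (x axis) of the 71 other pathway genes by list (y axis) in the 3 comparisons, black bars are list medians and the dashed line is the median of all genes. The amino acid response list has a median of 0.83 in let-7, with 10 of its 16 genes above 0. The purine synthesis list has a median of -0.41 there.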

How the data were processed

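Single-cell libraries of 4 conditions (232 runs, with 2 runs for each of 50 cells) were analysed. The authors aligned reads to Gencode M4 with RSEM 1.2.19 and deposited for each run an expected count, not normalized, and an FPKM value, normalized for length and depth. The genome build is not given in the sources used here. The expected counts of 2 runs were added where a cell had both, then rounded. FPKM was averaged over runs and used only to order genes by level. Identifiers were paired with Gencode M21 symbols (41674 of 42493). Counts were divided by DESeq size factors over 862 genes counted in every cell, a method the study used, and averaged over cells. Genes averaging 5 or more counts over all cells were kept. A gene was called at a 2-fold difference between means. A condition at 0 was set to a floor of 3 counts, and genes with at most 3 counts in both conditions got no ratio. With 1 sample per condition no test was run. Shares have exact binomial and summed counts exact Poisson intervals (95%). Totals per cell were at least 513521, and shares were also taken at 500000 counts. Doublets had been removed by the authors by microscopy of the capture sites, and no caller was run. Python 3.11.15 (numpy 2.4.6, scipy 1.17.1, pandas 2.3.3) and, for TMM, edgeR 4.0.16 in R 4.3.3 were used, and the ratios were tested on simulated data, where genes simulated as unchanged also passed 2-fold in each comparison. The members, gene lists and settings were chosen with earlier results of these data known. Named genes were the 9 members, the 3 highest and 3 lowest other pathway genes of each comparison and the 5 genes most like Tdh and Phgdh, and other names are said to be chosen later.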

Additional observations from a re-analysis of the deposited data

How the results depend on the processing

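The counts of genes at least 2-fold apart were recomputed with TMM factors, with cells scaled by total count, centred on the median gene, with pooled counts, with the median over cells, with the mean of log2 values, with the first run only, at 500000 counts, without 3 miR-294 cells with other titles, without 1 cell of each near-identical pair, without a filter and at 1.5-fold. The members' log2 ratios were recomputed under these settings except the filter and threshold, and shares of cells with the first run and at 500000 counts. FPKM orders, correlations, S phase levels and single ratios of other pathway genes were not recomputed. Leaving out the cells with unlike runs, or the highest cell of a gene, was chosen after seeing the data. Of 234 recomputed counts, 189 stayed within 1.5 times and 45 did not. Of 351 recomputed log2 ratios of members, 96 stayed within the counting error of the ratio and 255 moved further. That error is narrower than the real one. All 72 shares of cells stayed within their intervals. No log2 ratio past 2-fold changed sign, though Gldc had a median of 0 over cells in Dgcr8-/-, miR-294 and let-7. Below 2-fold, some alternatives turned the sign for Gcat from WT to Dgcr8-/-, for Shmt2 and Mthfd1 in let-7 and for Gldc in miR-294. The cause of these shifts was not tested.

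Members at least 2-fold higher in miR-294 numbered 4 in place of 2 when centred, with pooled counts and at 1.5-fold, and 3 with TMM factors, scaled by total, with the median, with log2 means and at 500000 counts. Members at least 2-fold lower in let-7 numbered 6 with the median over cells and 5 with the mean of log2 values or at 1.5-fold, in place of 3. They numbered 4 with TMM factors, scaled by total, centred, with pooled counts and at 500000 counts. From WT to Dgcr8-/-, members at least 2-fold lower numbered 4 in place of 3 under those settings. The number was also 4 there with the median, with log2 means, with the first run and at 1.5-fold. All genes higher in miR-294 numbered 646, and 1012 when centred, 1326 with the median over cells, 2833 without a filter and 1299 at 1.5-fold. Genes lower in miR-294 numbered 2281, and 1244 with the median, 937 with log2 means, 5343 without a filter and 3922 at 1.5-fold. In let-7, 2111 genes were higher, and 1277 with log2 means, 5637 without a filter and 3527 at 1.5-fold, while 1034 were lower, and 3118 without a filter and 1917 at 1.5-fold. From WT to Dgcr8-/-, 3555 were higher, and 2228 with the median, 2132 with log2 means and 6352 without a filter, while 1040 were lower, and 1825 when centred, 2652 without a filter and 1945 at 1.5-fold.

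Of the other pathway genes, 4 were higher in miR-294, and 8 when centred, 7 pooled, 11 with the median, 2 with the first run and 12 at 1.5-fold. Those lower numbered 8, and 5 scaled by total, centred, pooled or thinned, 3 with the median or log2 means and 17 at 1.5-fold. In let-7, 13 were higher, and 8 with the median, while 11 were lower, and 17 with the median, 18 with log2 means and 21 at 1.5-fold. From WT to Dgcr8-/-, 17 were higher, and 10 with the median and 7 with log2 means, while 8 were lower, and 13 when centred or at 1.5-fold.

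No paired analysis was possible because the replicate numbers in the titles mark sequencing runs of a cell, and no test was made. With 1 culture per condition, the data cannot show how far these levels vary between cultures. Counting intervals are narrower than the spread over cells, and WT values rest on 16 cells. Between the runs of a cell, which sequence the same library again, log2 values of the members differed by a median of 0 to 0.17 and by up to 2.68 for Gldc. Capture and amplification are not measured by this.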
